A study of Caenorhabditis elegans with 46 samples.

Results

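The count tables of this nematode study listed 473 mature microRNA arms of Caenorhabditis elegans, and 55 of them are late entries named miR- with a number beginning with 8 and followed by 3 more digits (8186 to 8212). An arm is the 5′ or the 3′ strand cut from a microRNA hairpin, and the 55 arms were taken by name alone, whatever their counts. They come from 28 hairpins, of which 27 have both arms listed and miR-8188 has only its 3p arm. After the filter on low counts, 47 of the 55 arms were tested, among 395 tested worm arms in all.

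The study sequenced small RNA from whole first-stage larvae (L1) in 46 libraries. Each of 11 genotypes was sequenced untreated and after oxidation with sodium periodate, which removes RNAs whose 3′ end carries no methyl group. In 10 genotypes a transgene expressed Ath-HEN1, the Arabidopsis HEN1 methyltransferase, from a cell-type promoter, so that oxidation should leave the microRNAs of the cells that the promoter drives. The comparisons ask which arms resist oxidation in which genotype, and whether this depends on henn-1, the worm's own small RNA methyltransferase gene.

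3 genotypes had henn-1: the wild type (strain N2), which has no Ath-HEN1, myo-3:Ath-HEN1 (strains MLC889 and MLC890) and ASE:Ath-HEN1 (MLC702 and MLC703). The other 8 genotypes were henn-1(0), so they lack the worm enzyme in the untreated libraries too. Their promoters were the broadly active rps-5 (MLC557 and MLC558), the pan-neuronal rab-3 (MLC450 and MLC451), unc-31 (MLC530 and MLC531) and rgef-1 (MLC664 and MLC665), the intestinal elt-2 (MLC559 and MLC631), the pharyngeal muscle myo-2 (MLC528 and MLC529), the body wall muscle myo-3 (MLC900 and MLC901) and ASE, active in a pair of taste neurons (MLC749 and MLC750). Each condition had 2 libraries, except rps-5 with 3, of which MLC558 gave 2. Every library was made from whole larvae, and in such bulk samples fewer cells of a type and less RNA per cell cannot be told apart.

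Plant HEN1 methylates the 3′ end of microRNAs, whereas animal microRNAs normally keep an unmethylated 3′ end. HENN-1 methylates piRNAs, called 21U-RNAs in worms, and some other small RNAs bound by Argonaute proteins. MicroRNAs are numbered in order of discovery, so a high number marks a late entry, mostly from deep sequencing. Where a role is given here, it is that of the gene that hosts the hairpin.

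The total of each table, over worm arms, ranged from 10700000 to 43300000 counts in the untreated libraries and from 426000 to 35300000 in the oxidised ones. Oxidised libraries with henn-1 had 426000 to 1440000 counts, as few as the oxidised ASE henn-1(0) libraries (1010000 and 1060000), and the other oxidised henn-1(0) libraries had 2030000 or more. Levels are given on the counts-per-million scale (cpm), relative to the total of that library. A change with oxidation is the log2 ratio of oxidised to untreated after scaling of the library sizes (TMM), and rose or fell means an adjusted p under 0.05 in edgeR's quasi-likelihood test with Benjamini-Hochberg adjustment over all 395 arms. The scaling sets the zero of this ratio: in the wild type the median of all tested arms was -2.20 with TMM, 0.19 with RLE size factors and -0.11 with total counts alone, and in ASE:Ath-HEN1 with henn-1 it was -1.83, 0.53 and 0.01. No tested arm of the 47 changed from a called rise to a called fall, or the reverse, between these scalings in any of the 21 comparisons. Shares of all arms given below are those with TMM, also where counts with RLE, total counts or DESeq2 stand beside them. Those other counts have no share of all arms under the same setting here, so they cannot be read against the TMM shares. Fold bounds and ratios at counts of 3 or fewer use counts scaled by the effective library size, and their 95% intervals cover counting error only.

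As a check of the labelled cells, miR-60-3p, an intestinal microRNA, rose with elt-2 (log2 1.47 ± 0.41, SE), miR-1-3p, a muscle microRNA, rose with myo-2 (2.34 ± 0.39) and with myo-3 in henn-1(0) (3.51 ± 0.41), the neuronal miR-124-3p rose with rgef-1 (2.47 ± 0.38), and lsy-6-3p, a microRNA of the left ASE neuron, rose with ASE in henn-1(0) (4.60 ± 0.49). miR-124-3p rose less with rab-3 (0.98 ± 0.36) and unc-31 (1.44 ± 0.36), and miR-60-3p did not pass with rab-3 (-0.74 ± 0.40). With henn-1 present, miR-1-3p rose with myo-3 (2.85 ± 0.40). With ASE and henn-1, lsy-6-3p rose by only 1.36 ± 0.43 and miR-124-3p fell (-1.84 ± 0.37). In the wild type all 4 fell, by 3.38 to 4.71. With rps-5, the reference of the driver comparisons below, miR-1-3p rose (1.17 ± 0.31), miR-124-3p did not pass (0.22 ± 0.29), and miR-60-3p (-1.14 ± 0.33) and lsy-6-3p (-1.98 ± 0.36) fell.

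The 55 arms were scarce before oxidation. They took 0.0191% of the untreated counts, and the median arm had 0.264 cpm over the 23 untreated libraries, against 37.3 cpm for the 243 arms numbered 1 to 800 together with lin-4, let-7 and lsy-6. The 85 arms numbered 1018 to 2953 had a median of 0.972 cpm and the 90 arms numbered 4805 to 5595 one of 0.266 cpm. Only 3 of the 55 reached 10 cpm and 16 reached 1 cpm.

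**Figure D1:**
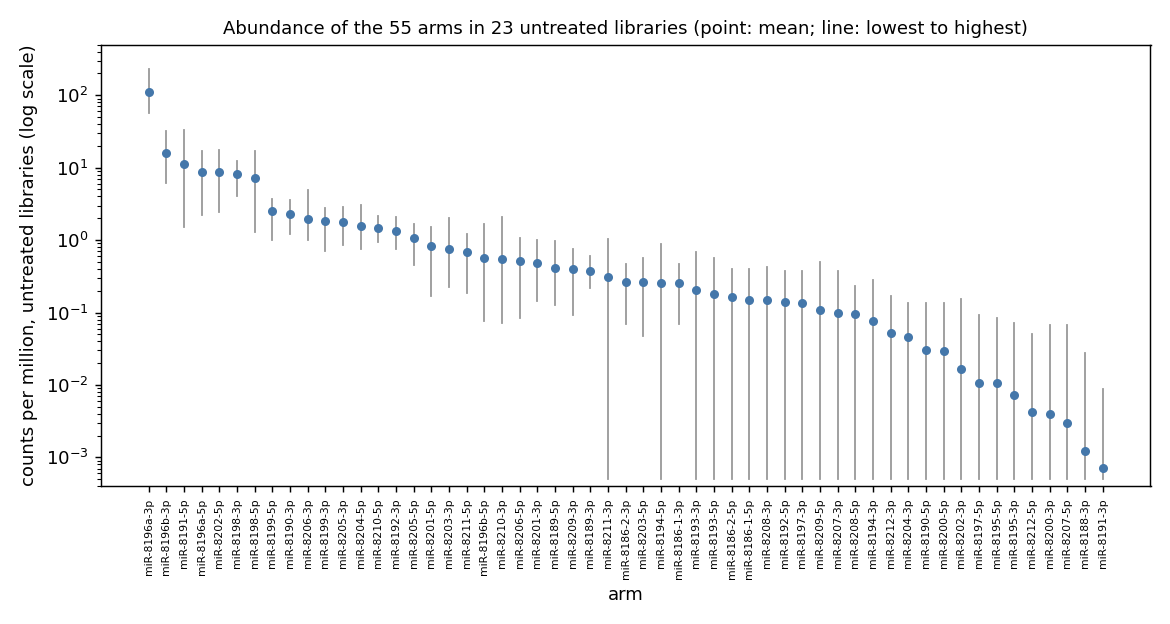
Level of each of the 55 arms in the 23 untreated libraries, in cpm on a log axis. Points are means over libraries and lines run from the lowest to the highest library, and a line that reaches the lower edge has a library with no count. miR-8196a-3p stands at the top with a mean of 112 cpm, and most arms lie under 1 cpm.

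miR-8196a-3p was the most abundant of them, with 112 ± 37.8 cpm (SD, n = 23) and values from 56.1 to 234, which placed it at rank 100 of the worm arms. Its hairpin lies on chromosome X, 2329038 to 2329103, plus strand (WBcel235), in an exon of the long noncoding RNA linc-154. miR-8196b-3p followed with 15.8 ± 6.05 cpm (6.18 to 32.6). Next came miR-8191-5p with 11.2 ± 7.77 cpm, miR-8196a-5p with 8.85 ± 4.28, miR-8202-5p with 8.84 ± 3.99, miR-8198-3p with 8.19 ± 2.52 and miR-8198-5p with 7.26 ± 4.14. The last of these ran from 1.31 to 17.1 cpm, and miR-8191-5p from 1.51 to 33.6 cpm, so both spread over a wider range than the rest of this group. The 5p arms of miR-8196a and miR-8196b carried fractional counts in 38 and 36 of the 46 libraries. How fractional counts arose is not stated in the sources used here, and the separate levels of these arms are uncertain.

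Of the 8 arms that were not tested, miR-8203-5p had 140 counts over all libraries, miR-8195-3p 8, miR-8195-5p 6, miR-8197-5p 4.5 and miR-8212-5p 4. The other 3 of these arms, miR-8188-3p, miR-8207-5p and miR-8191-3p, had at most 1 count. miR-8203-5p lay between 0.0473 and 0.562 cpm in the untreated libraries and had no count in 22 of the 23 oxidised ones, and 0.142 cpm in the other.

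With henn-1 present, the 55 arms together took a far larger share of the oxidised libraries than in its absence. In the wild type the 55 arms together had 142 ± 6.11 cpm untreated and 8220 ± 240 cpm oxidised (SD, n = 2), that is 0.0142% and 0.822% of the counts. ASE:Ath-HEN1 with henn-1 went from 169 ± 6.59 to 8740 ± 645 cpm, and myo-3:Ath-HEN1 with henn-1 from 157 ± 33.2 to 2060 ± 77.3 cpm. In the 8 henn-1(0) genotypes the oxidised mean lay between 207 cpm (myo-3) and 642 cpm (rps-5), from untreated means of 169 to 252 cpm. The oxidised ASE henn-1(0) libraries, as shallow as those with henn-1, had 259 ± 14.9 cpm. Pooled over all genotypes, the 55 arms took 0.0191% of untreated and 0.056% of oxidised counts. The arms numbered 1018 to 2953 took 0.151% and 0.285%, and those numbered 4805 to 5595 took 0.038% and 0.0702%. The lower-numbered arms took 99.8% and 99.6%. A gain with oxidation was thus not particular to the 55 arms, and the other sets were not split by henn-1.

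4 arms made up most of the difference between oxidised libraries with and without henn-1. miR-8198-3p had 9.78 and 5.68 cpm in the untreated wild type libraries and 2800 and 2060 cpm in the oxidised ones. With ASE:Ath-HEN1 and henn-1 it went from 5.40 and 4.60 to 2260 and 2030 cpm, and with myo-3:Ath-HEN1 and henn-1 from 5.89 and 4.69 to 341 and 377 cpm. All 6 oxidised libraries with henn-1 stood above all 23 untreated ones, which lay between 4.07 and 12.4 cpm. The 17 oxidised henn-1(0) libraries ran from 0 to 4.74 cpm with a median of 0.164, below most untreated libraries, and did not overlap with the henn-1 ones. The log2 change with oxidation was 6.14 ± 0.56 in the wild type, 6.87 ± 0.58 with ASE and henn-1, and 6.00 ± 0.56 with myo-3 and henn-1 (SE). It fell in 7 of the 8 henn-1(0) genotypes under all 3 scalings and in the other, ASE, with TMM but not with RLE or total counts. With rps-5 it went from 4.07, 9.75 and 9.69 to 0.0711, 0.0685 and 0.0999 cpm, 1 count in each oxidised library and a ratio of 114 (95% interval 38.8 to 558).

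miR-8198-5p, from the same hairpin, had 2.56 and 1.58 cpm untreated and 559 and 822 cpm oxidised in the wild type. It went from 2.93 and 1.72 to 1500 and 1340 cpm with ASE and henn-1, and from 1.31 and 2.08 to 145 and 222 cpm with myo-3 and henn-1, the largest called rise in both genotypes (7.37 ± 0.68 and 6.67 ± 0.67 on the log2 scale). The 17 oxidised henn-1(0) libraries lay between 0 and 32.2 cpm, and the highest of them were the ASE ones with 11.9 and 32.2 cpm. The mir-8198 hairpin lies between genes on chromosome IV, 16214390 to 16214461, minus strand. Both of its arms share 18 bases with an annotated piRNA gene on the same strand: the 3p arm with 21ur-6991 (16214387 to 16214407) and the 5p arm with 21ur-5102 (16214444 to 16214464), their 5′ ends 3 bases apart. There are 346 piRNA genes within 50 kb. Around other worm arms on IV this number ran from 0 (miR-51-3p) to 433 (miR-2217b-3-3p), so a high number is not particular to the 55 arms. Among the 371 other worm arms with a position, 2 overlap a piRNA gene on their strand, against 2 of the 55. Counts of an arm and of a piRNA from the same bases cannot be told apart in these tables.

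miR-8202-5p had 10.3 and 7.76 cpm untreated and 2810 and 2900 cpm oxidised in the wild type. With ASE and henn-1 it had 10.4 and 12.3 cpm before and 2970 and 2730 cpm after oxidation, and with myo-3 and henn-1 13.8 and 11.6 cpm before and 695 and 649 cpm after. The oxidised libraries with henn-1 all exceeded the untreated range of 2.44 to 17.4 cpm, and the 17 oxidised henn-1(0) libraries had 0.0685 to 17.1 cpm. Its other arm, miR-8202-3p, was at 0 in both untreated wild type libraries and at 4.70 and 4.72 cpm in both oxidised ones, at least 27.8-fold higher against a floor of 3 counts over the untreated group, and was at 0 in all 17 oxidised henn-1(0) libraries. Those oxidised wild type values rest on 6 counts in all, and the bound does not cover the counting error of these 6. miR-8202-3p was also at 0 in 2 of the 6 oxidised libraries with henn-1, and had 22 counts over all 46 libraries. Its change with oxidation passed no comparison of henn-1 present with null, so its zeros without henn-1 do not separate the kinds of library. The hairpin lies on chromosome IV, 6178148 to 6178231, minus strand, in an intron of unc-77, which encodes a subunit of a sodium leak channel, with 171 piRNA genes within 50 kb.

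miR-8196a-5p had 2.19 and 4.19 cpm untreated and 259 and 709 cpm oxidised in the wild type, 3.88 and 2.59 against 1110 and 948 cpm with ASE and henn-1, and 9.13 and 7.5 against 436 and 425 cpm with myo-3 and henn-1. The 17 oxidised henn-1(0) libraries had 0.493 to 23.2 cpm, and again no library of one kind reached the other. Its hairpin, in linc-154 on X, has no piRNA gene within 50 kb. The 3p arm, miR-8196a-3p, behaved differently: it had 56.1 to 234 cpm untreated, 236 to 1260 cpm oxidised with henn-1 and 91.9 to 792 cpm oxidised without, so the last 2 ranges overlapped.

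**Figure D2:**
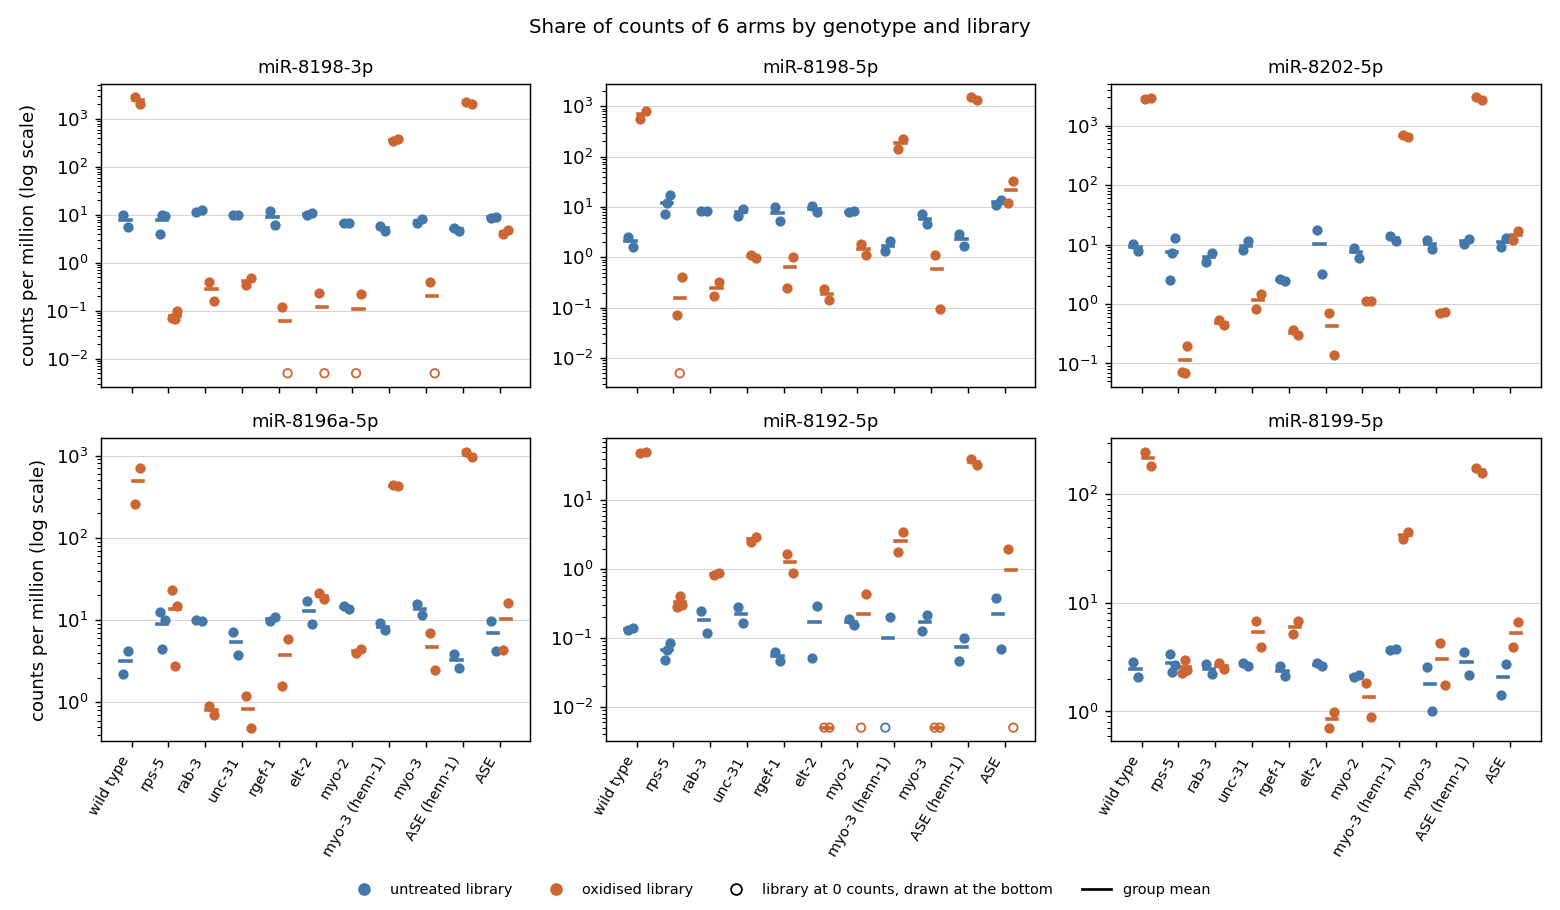
Level of miR-8198-3p, miR-8198-5p, miR-8202-5p, miR-8196a-5p, miR-8192-5p and miR-8199-5p in every library, by genotype, in cpm on a log axis. Points are libraries, untreated and oxidised in different colours, lines are group means, and open circles at the bottom have no count. For miR-8198-3p the 6 oxidised libraries with henn-1 lie at 341 to 2800 cpm and the 17 without at 0 to 4.74 cpm.

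Scarcer arms rose with them. miR-8192-5p, whose hairpin lies in an intron of the folliculin gene flcn-1 (II, 6943941 to 6944018, plus strand), went from 0.131 and 0.139 to 49.3 and 50.8 cpm in the wild type and from 0.0462 and 0.101 to 39.5 and 32.4 cpm with ASE and henn-1. With myo-3 and henn-1 the oxidised libraries had 1.76 and 3.46 cpm, the lowest of the 6, and the 17 without henn-1 reached up to 2.96 cpm, so the kinds overlapped.

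miR-8199-5p had 2.85 and 2.08 cpm untreated and 247 and 183 cpm oxidised in the wild type, and 38.7 to 175 cpm in the other 4 oxidised libraries with henn-1. The 17 oxidised henn-1(0) libraries stayed between 0.71 and 6.86 cpm. Its partner miR-8199-3p had 27.7 to 108 cpm against 0.842 to 5.68 cpm in the same comparison, and miR-8204-5p, from an exon in the untranslated region of F21A9.1, had 11.4 to 78.3 against 0.369 to 5.84 cpm. None of these 3 arms overlapped between the kinds of library. miR-8201-5p, from an intron of the linker histone gene hil-2 (IV, 6294579 to 6294635, plus strand, 73 piRNA genes within 50 kb), had 6.15 to 43.7 against 0.14 to 3.96 cpm, and miR-8196b-5p had 4.21 to 17.4 against 0 to 1.65 cpm. In all, 9 of the 47 tested arms had every oxidised library with henn-1 above every oxidised library without it, against 10.4% of all 395 tested arms. The reverse was seen for 0 of the 47, against 0.506% of the 395.

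The test of the difference used the drivers that were sequenced with and without henn-1. For the mean of ASE and myo-3, the change with oxidation was higher with henn-1 for 16 of the 47 arms, against 17.7% of all arms, and lower for 2, against 35.7%, or 53.4% in either direction (with total counts alone 17 and 0). The median difference was 0.92 for these arms and -0.98 for all 395. The ASE pair alone gave 13 higher and 4 lower, against 14.2% and 43.8% and 58% in either direction (RLE 17 and 0, total counts 15 and 1), and the myo-3 pair 11 higher and 0 lower, against 14.2% and 0.253% and 14.4% in either direction. In the myo-3 pair 15 of the 47 and 82 of all 395 arms had an unadjusted p under 0.05, and 7 arms were called without the low count filter and 7 without the oxidised MLC889, MLC890 or MLC901 library. Of the 47 arms, 9 were higher in both pairs, against 10.4% of all arms. The 9 are 69.2% of the 13 and 81.8% of the 11, and over all arms the same overlap was 73.2% of the 56 higher in each pair. The mean of all 3 genotypes with henn-1 against the mean of the 8 without gave 17 higher and 2 lower, against 19.2% and 43.3% and 62.5% in either direction (RLE and total counts 22 and 0, DESeq2 30 and 0). In that comparison the drivers differ between the sides and the wild type has no Ath-HEN1, so henn-1 cannot be told apart from these. The ASE lines with and without henn-1 carry library numbers that stand apart, those of myo-3 adjoin, and henn-1 and whatever those numbers mark cannot be told apart in the ASE pair.

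miR-8198-3p showed the largest difference, 9.87 ± 0.58 on the log2 scale in the mean (adjusted p = 7.56e-17, edgeR's quasi-likelihood test with Benjamini-Hochberg adjustment), with 8.54 ± 0.78 in ASE and 11.21 ± 0.85 in myo-3. miR-8198-5p followed with 8.59 ± 0.62 (7.20 ± 0.83 and 9.99 ± 0.92) and miR-8202-5p with 7.88 ± 0.58 (6.38 ± 0.79 and 9.39 ± 0.85). Part of the miR-8198-5p difference lies in its untreated level, which was lower with henn-1 in the mean of these drivers, as given below. miR-8196a-5p differed by 6.84 ± 0.75 (6.54 ± 1.08 and 7.14 ± 1.05). In each of these 4 arms all 6 oxidised libraries with henn-1 stood at 145 cpm or more.

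miR-8192-5p differed by 7.20 ± 1.19 (5.44 ± 1.31 in ASE, 8.96 ± 2.02 in myo-3), a fitted value that rests on a group with no count, the oxidised myo-3 henn-1(0) libraries. Its ASE difference was lost without the untreated MLC749 library (adjusted p = 0.0628). miR-8208-3p, at 0.423 cpm or less in every untreated library, differed by 6.55 ± 2.53 in the mean and 8.15 ± 3.31 in ASE, also against groups with no count, while its myo-3 value of 4.95 ± 3.11 did not pass (adjusted p = 0.418, edgeR's quasi-likelihood test with Benjamini-Hochberg adjustment). The miR-8208-3p mean was lost without the oxidised MLC890 library (4.78) or the untreated MLC750 library (adjusted p = 0.0716), and its ASE difference without the latter (adjusted p = 0.148).

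miR-8204-5p differed by 3.53 ± 0.52 (2.34 ± 0.75 and 4.71 ± 0.73). miR-8199-5p differed by 3.01 ± 0.45 (3.33 ± 0.67 and 2.69 ± 0.61) and miR-8199-3p by 2.95 ± 0.47 (2.70 ± 0.68 and 3.20 ± 0.64). The myo-3 differences of both miR-8199 arms were lost without the low count filter (1.20 and 1.75) and without the untreated MLC900 library (0.61 and 1.20). The miR-8199-5p one was also lost with only the myo-3 libraries in the fit (1.00) and without the oxidised MLC889 (1.34), untreated MLC890 (1.40), oxidised MLC890 (1.38) or oxidised MLC901 (0.96) library. The miR-8199-3p one was also lost without the oxidised MLC889 (1.75) or MLC901 (1.83) library.

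miR-8196b-5p differed by 3.44 ± 0.83 in the mean and 4.52 ± 1.14 in myo-3, and its ASE value of 2.35 ± 1.24 did not pass with TMM but did with RLE (4.29), total counts (3.61) or DESeq2 (4.31). The myo-3 difference of miR-8196b-5p lost its call without the oxidised MLC889 (3.09), oxidised MLC890 (3.43), untreated MLC901 (3.00) or oxidised MLC901 (2.75) library. Among the abundant 3p arms, miR-8196a-3p was higher by 1.25 ± 0.41, a call lost without the low count filter (0.96), and miR-8196b-3p was lower (-1.61 ± 0.63), a call lost with RLE (-1.17), total counts (-0.95) and DESeq2 (-1.18), and in 12 of the 16 fits that left out a library. miR-8211-5p was the other lower arm (-1.97 ± 0.57), a call lost with total counts (-1.33, adjusted p = 0.0587), and its ASE difference of -4.11 was lost with RLE (-2.24, adjusted p = 0.055).

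**Figure D3:**
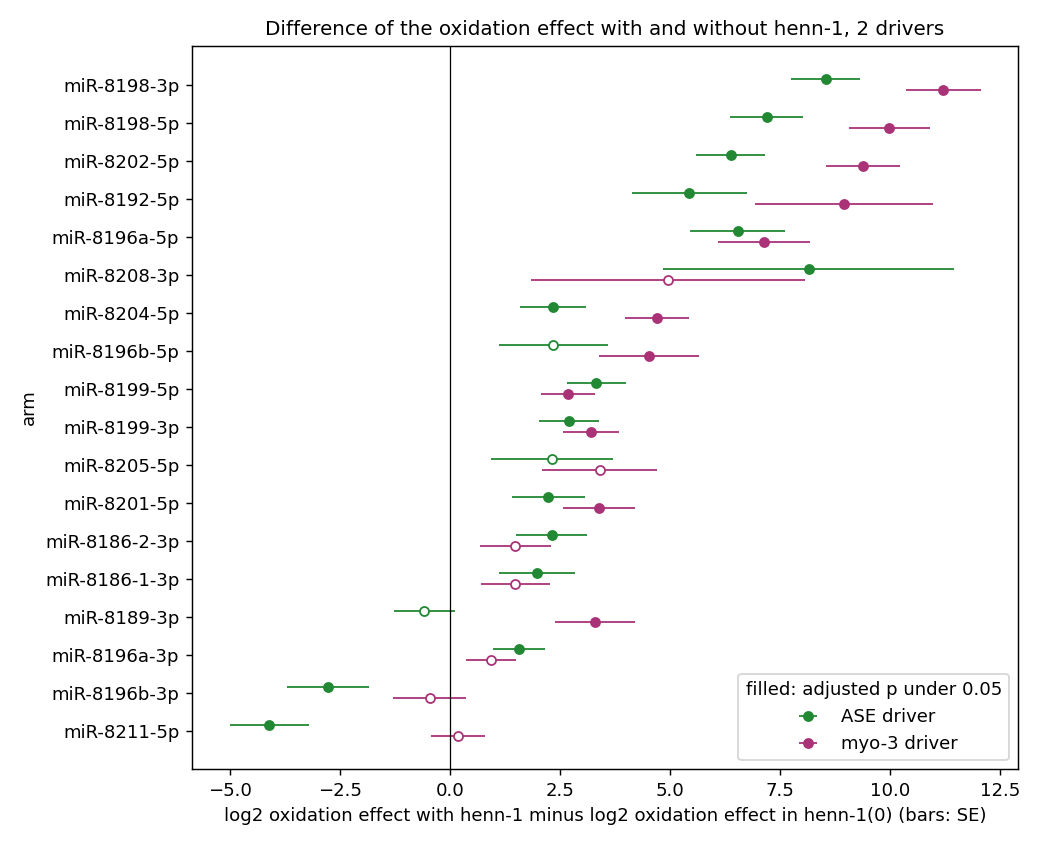
Difference in the log2 change with oxidation, henn-1 present minus null, for the ASE and the myo-3 driver and the 18 arms called in their mean. Bars are standard errors and filled points passed an adjusted p of 0.05. miR-8198-3p lies farthest to the right, at 8.54 for ASE and 11.21 for myo-3, and miR-8211-5p lies to the left for ASE at -4.11, a call lost with RLE.

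In untreated larvae, 1 of all 395 arms passed the test between henn-1 present and null, and it was miR-8198-5p, so 0 of the 47 were higher, against 0% of all arms, and 1 was lower, against 0.253%. It had 1.31 to 2.93 cpm in the 6 untreated libraries with henn-1 and 4.51 to 17.1 cpm in the 17 without, with no overlap. In the mean of the ASE and myo-3 drivers the level with henn-1 was lower by a log2 difference of -2.29 ± 0.40 (adjusted p = 0.00053, edgeR's quasi-likelihood test with Benjamini-Hochberg adjustment). At an unadjusted p under 0.05 it was 6 of the 47 and 32 of all arms, and DESeq2 also called 1 of the 47. The call was lost when the untreated MLC703 library was left out, with 0 of the 47 passing. miR-8198-3p, the other arm of that hairpin, had 4.07 to 12.4 cpm untreated over both kinds of library.

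Within each genotype, the arms divided differently from one driver to the next. The shares of all arms are again those with TMM only. In the wild type 20 of the 47 rose, against 20.8% of all arms, and 6 fell, against 48.9%, and 69.6% of all arms did either (RLE 30 and 0, total counts 29 and 1). Their median change was 1.95. With ASE and henn-1 23 rose and 6 fell, against 23.5% and 48.4% and 71.9% for either (RLE 30 and 0, total counts 30 and 1), and with myo-3 and henn-1 21 rose and 6 fell, against 27.3% and 31.6% and 59% for either (RLE 21 and 2).

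Without henn-1, rps-5 had 22 arms that rose and 6 that fell, against 34.9% and 22.5% of all arms and 57.5% for either (RLE 14 and 6; 28 called in all, 18 without the first oxidised or the second untreated MLC558 library and 10 with the rps-5 libraries alone). The pan-neuronal rab-3 gave 15 and 16, against 36.2% and 36.7% and 72.9% for either, unc-31 gave 15 and 12, against 31.4% and 36.7% and 68.1% for either, and rgef-1 gave 21 and 11, against 39.5% and 32.9% and 72.4% for either. For the tissues outside the nervous system more arms fell than rose with TMM, but not with RLE for myo-2 and myo-3: elt-2 had 8 that rose and 15 that fell, against 28.1% and 46.8% and 74.9% for either (RLE 10 and 11), myo-2 7 and 13, against 20.5% and 46.3% and 66.8% for either (RLE 10 and 6, DESeq2 9 and 4), and myo-3 8 and 14, against 18.7% and 50.9% and 69.6% for either (RLE 12 and 8). The myo-2 total of 20 was 7 without the oxidised MLC529 library, 11 without the oxidised MLC528 library and 8 with the myo-2 libraries alone. With ASE in henn-1(0) 9 rose and 1 fell, against 17.5% and 20% and 37.5% for either, in oxidised libraries of 1010000 and 1060000 counts.

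**Figure D4:**
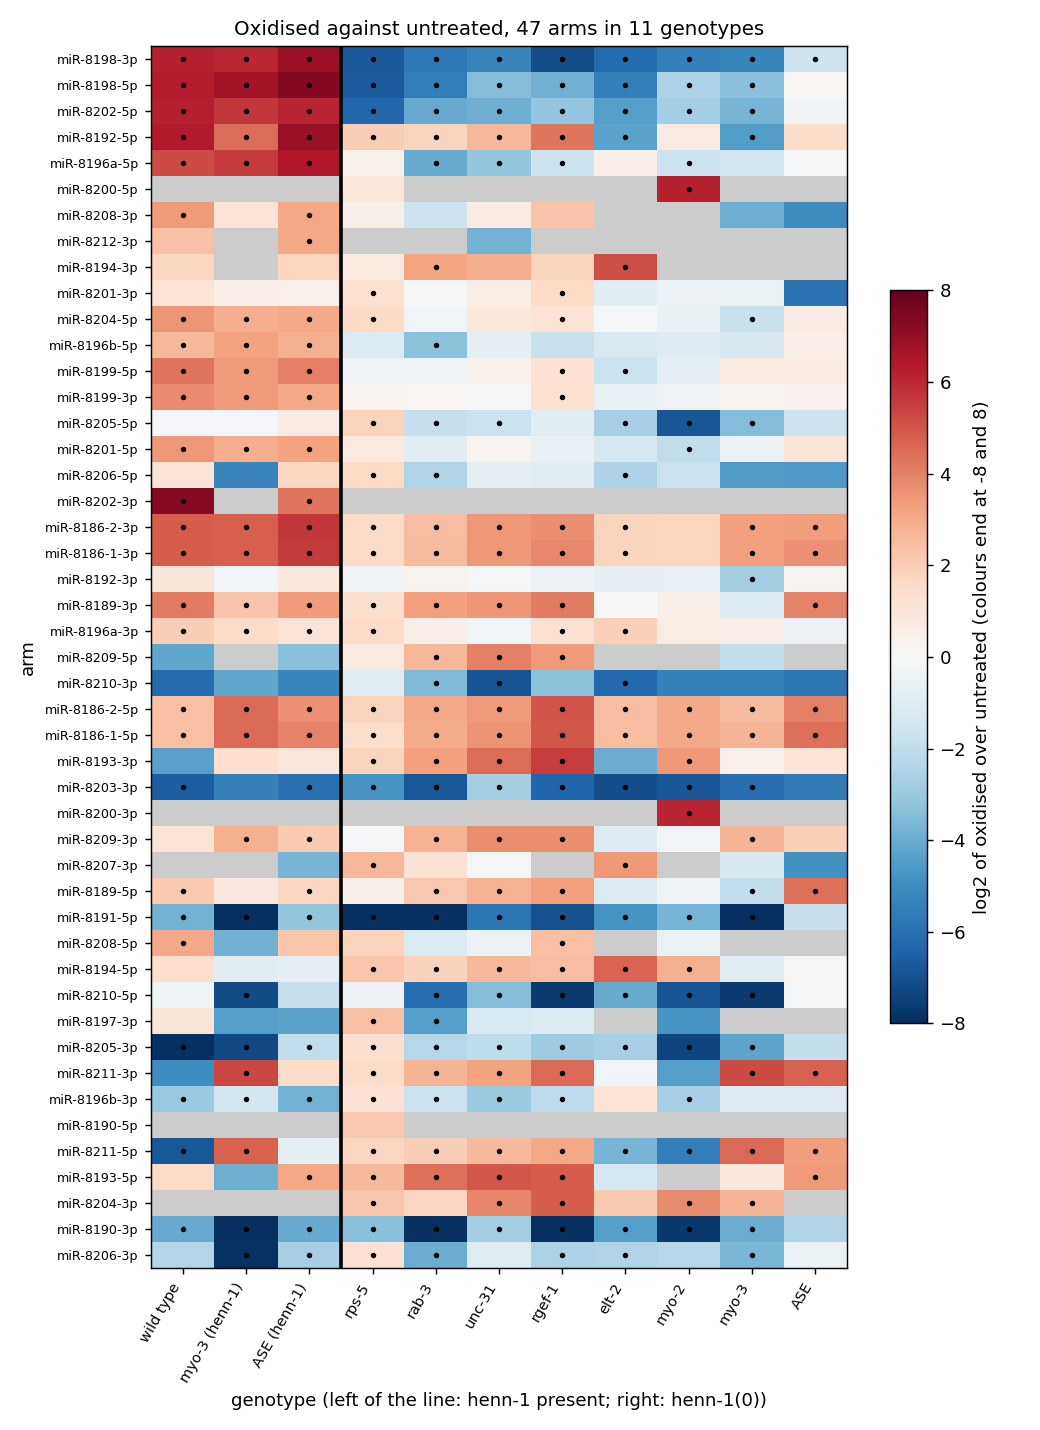
Fitted log2 change with oxidation for the 47 tested arms (rows) in the 11 genotypes (columns), red above 0 and blue below, with colours ending at 8 in either direction. Dots mark an adjusted p under 0.05, and grey cells have 3 counts or fewer in both groups. The miR-8198, miR-8202-5p and miR-8196a-5p rows are red in the 3 genotypes with henn-1, where their log2 changes run from 5.24 to 7.37.

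Of the 47 arms, 14 (29.8%) rose with all 3 pan-neuronal drivers, against 28.6% of all arms, so the share was that of the background. Both arms of miR-8186-1 and of miR-8186-2, opposite strands of 1 site, are among the 14. The largest rises among the 14 were those of miR-8193. miR-8193-5p, from an intron of dmsr-2, a neuropeptide receptor gene, had 0.25 and 0.212 cpm untreated and 7.12 and 6.32 cpm oxidised with rab-3, 0.114 and 0.504 against 13.1 and 13.3 cpm with unc-31, and 0.562 and 0.368 against 16.4 and 13.7 cpm with rgef-1. Both oxidised libraries stood above both untreated ones in each genotype, and the rises were 4.38 ± 0.59, 4.97 ± 0.64 and 4.84 ± 0.60. With rps-5 it rose by 2.59 ± 0.69 (0 to 0.189 cpm untreated, 0.70 to 0.89 oxidised), and with elt-2, myo-2 and myo-3 in henn-1(0) it had 0 to 0.444 cpm after oxidation, and no change there passed the test. The 5p arm also rose with ASE, both with henn-1 and in henn-1(0). miR-8193-3p, its partner, made the largest rise in rgef-1, from 0.312 and 0.23 to 18.8 and 9.84 cpm (5.56 ± 0.69). This 3p arm also rose with rps-5, rab-3, unc-31 and the pharyngeal muscle driver myo-2, so the hairpin's rises were not confined to neuronal drivers.

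miR-8209-3p had 0.535 and 0.731 cpm untreated and 6.27 and 6.11 cpm oxidised with rab-3, 0.482 and 0.168 against 10.2 and 5.92 cpm with unc-31, and 0.749 and 0.644 against 13.1 and 7.16 cpm with rgef-1. With rps-5 it had 0.406 to 0.426 cpm untreated and 0.30 to 0.569 cpm oxidised, and these ranges overlapped. It also rose with myo-3 in henn-1(0), from 0.298 and 0.644 to 2.89 and 2.98 cpm (2.74 ± 0.58). The difference of the 3 pan-neuronal drivers from rps-5 was 3.49 ± 0.65 (adjusted p = 2.4e-05, edgeR's quasi-likelihood test with Benjamini-Hochberg adjustment), the largest of the 11 higher differences among the 47, against 27.1% of all arms. Another 11 were lower, against 30.1%, and 57.2% of all arms differed in either direction. All these driver comparisons share the rps-5 libraries.

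miR-8189-3p (hairpin between genes on IV, 2079009 to 2079082, plus strand) had 0.215 to 0.602 cpm in all untreated libraries. Its counts were fractional in 31 of the 46 libraries, so its level is uncertain in the same way as those of miR-8196a-5p and miR-8196b-5p. It reached 4.85 and 4.65 cpm with rab-3, 5.38 and 7.89 with unc-31, 7.88 and 6.46 with rgef-1, and 7.25 and 14.8 cpm with ASE in henn-1(0), where the oxidised libraries were all above the untreated ones. It was at 0.131 to 0.737 cpm with elt-2, myo-2 and myo-3 in henn-1(0), and no change there passed the test. In the wild type, which has no plant enzyme, it also rose, from 0.27 and 0.282 to 23.5 and 18.9 cpm (4.13 ± 0.49). Further rises were called with the broad rps-5 (1.30 ± 0.40) and with ASE and myo-3 in the presence of henn-1. Its change was higher with henn-1 in the mean of ASE and myo-3, so its rises were not confined to neuronal drivers.

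Both arms of miR-8211 rose with the neuronal and the body wall muscle drivers. Its hairpin lies in a coding exon of Y56A3A.7 on chromosome III (11936916 to 11936980, minus strand). miR-8211-3p went from 1.02 and 0.215 cpm untreated to 43.7 and 8.58 cpm oxidised with myo-3 in henn-1(0), and from 0.509 and 0.335 to 14.9 and 21.5 cpm with myo-3 and henn-1. It went from 0.151 and 0.282 to 7.91 and 10.4 cpm with ASE in henn-1(0). These were the largest rises in the 2 henn-1(0) genotypes, 5.22 ± 0.70 and 4.69 ± 0.91. miR-8211-3p had no count after oxidation in the wild type and with myo-2, and 0.0789 and 0.14 cpm with elt-2. Both arms rose with rps-5, the 3 pan-neuronal drivers, both myo-3 genotypes and ASE in henn-1(0), and the rps-5 call of miR-8211-3p (1.48 ± 0.60) was lost with RLE. miR-8211-5p fell with elt-2, by a ratio of 15.7 (95% interval 2.58 to 644). In the wild type it went from 0.811 and 0.749 cpm to no count, at least 1.39-fold lower, a call lost with RLE (adjusted p = 0.291) and total counts (adjusted p = 0.225), and with myo-2 from 9 counts to 0, a call lost with RLE (adjusted p = 0.206) and too few counts for a fold bound. Against rps-5, miR-8211-3p was higher with myo-3 by 3.74 ± 0.90, the largest of 7 higher differences there, against 14.7% of all arms. 12 were lower, against 45.3%, with 60% in either direction (RLE 12 and 4, total counts 5 and 15), and the 19 became 11 without the oxidised MLC900 library.

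Both arms of miR-8194 rose with the intestinal driver. miR-8194-5p (V, 1221313 to 1221368, minus strand, between genes) had 0.354 and 0.218 cpm untreated and 8.20 and 7.29 cpm oxidised with elt-2, a rise of 4.65 ± 0.57. It also rose with rps-5, the 3 pan-neuronal drivers and myo-2, to between 0.615 and 3.32 cpm, all below both elt-2 values. miR-8194-3p had 0 and 0.0726 cpm untreated, a single count, and 1.10 and 1.82 cpm oxidised with elt-2, a ratio of 44.7 (95% interval 7.36 to 1830). It also rose with rab-3, from 0.107 and 0.0236 to 0.709 and 0.927 cpm (3.18 ± 0.90). Against rps-5 the elt-2 change of miR-8194-3p was higher by 4.37 ± 1.75, a call lost without the first untreated MLC558 library (adjusted p = 0.0567), the other untreated MLC558 library (adjusted p = 0.168) or the untreated MLC559 library (adjusted p = 0.0545; edgeR's quasi-likelihood test with Benjamini-Hochberg adjustment). Both miR-8194 arms made up the 2 higher differences, against 16.7% of all arms, and 12 were lower, against 37.5%, with 54.2% in either direction (RLE 5 and 7). These 14 became 6 without the oxidised MLC559 library, 9 without the untreated MLC631 or the second untreated MLC558 library, and 7 with the elt-2 and rps-5 libraries alone.

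The lowest of these elt-2 differences was that of miR-8192-5p, a fitted -6.29 ± 2.07. It had 0.0505 and 0.29 cpm untreated and no count oxidised with elt-2, which makes it at least 1.01-fold lower against a floor of 3 counts over the oxidised group. With rps-5 it went from 0.0473 to 0.0835 cpm up to 0.285 to 0.411 cpm. The miR-8192-5p difference lost its call with DESeq2 (adjusted p = 0.0533), without the low count filter (adjusted p = 0.0569) and without either oxidised elt-2 library or the untreated MLC631 library (adjusted p = 0.157, 0.0708 and 0.236).

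miR-8205 and miR-8206 rose with rps-5 and with no other driver among the henn-1(0) genotypes, as 6 of the 47 did, against 7.59% of all arms. These 6 are 27.3% of the 22 that rose with rps-5, against 21.7% of the 138 over all arms. miR-8205-5p, from an intron of the septin gene unc-59, had 1.02 to 1.25 cpm untreated and 3.60 to 6.16 cpm oxidised with rps-5, with no overlap. It fell with elt-2, from 1.67 and 0.871 to 0.237 and 0.14 cpm, and with myo-2, from 0.843 and 0.999 cpm to no count, at least 2.18-fold lower. With RLE size factors miR-8205-5p also rose in the wild type and with ASE and henn-1 (3.03). miR-8206-3p (III, 6194849 to 6194906, minus strand, between genes) had 4.97, 1.22 and 1.59 cpm untreated and 13.9, 2.33 and 4.30 cpm oxidised with rps-5, where the highest untreated library exceeded 2 of the 3 oxidised ones, and the rise of 1.13 ± 0.48 was lost with RLE. miR-8205-3p rose with rps-5 by 1.25 ± 0.38 and fell in the wild type from 1.99 and 2.52 cpm to no count, at least 4.01-fold lower, a call lost with RLE (adjusted p = 0.0594), with DESeq2 (adjusted p = 0.118) and without either oxidised wild type library (adjusted p = 0.0896 and 0.253).

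The lowest difference from rps-5 was that of miR-8205-5p for myo-2, a fitted -8.61 ± 1.87, lost without the oxidised MLC529 library (adjusted p = 0.0526), and for ASE, -3.42 ± 1.20. The ASE call on miR-8205-5p was lost with RLE (-2.73), total counts (-3.06), DESeq2 (-2.75), no low count filter (-2.79), the ASE and rps-5 libraries alone (-3.09) and without the oxidised MLC749 (-8.47), untreated MLC750 (-1.57) or oxidised MLC750 (-1.71) library. With myo-2, 2 of the 47 were higher than with rps-5 and 8 lower, against 10.6% and 38.2% of all arms and 48.9% in either direction (RLE 5 and 3). The 10 became 3 without the oxidised MLC529 library, 5 without the untreated MLC529 library, 6 without the oxidised MLC528 library and 6 without the low count filter. With ASE 9 were higher and 4 lower, against 17.2% and 18% and 35.2% in either direction (RLE 13 and 0, total counts 11 and 1, the ASE and rps-5 libraries alone 8 and 0). miR-8198-5p was the highest in both, by 4.13 ± 1.01 and 6.81 ± 0.89: with rps-5 it went from 7.24, 12.1 and 17.1 cpm to 0.0711, 0 and 0.40 cpm, with myo-2 from 7.96 and 8.30 to 1.84 and 1.11 cpm, and with ASE in henn-1(0) from 10.9 and 13.7 to 11.9 and 32.2 cpm. The oxidised libraries lay below the untreated ones with rps-5 and myo-2, and the ranges overlapped with ASE.

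**Figure D5:**
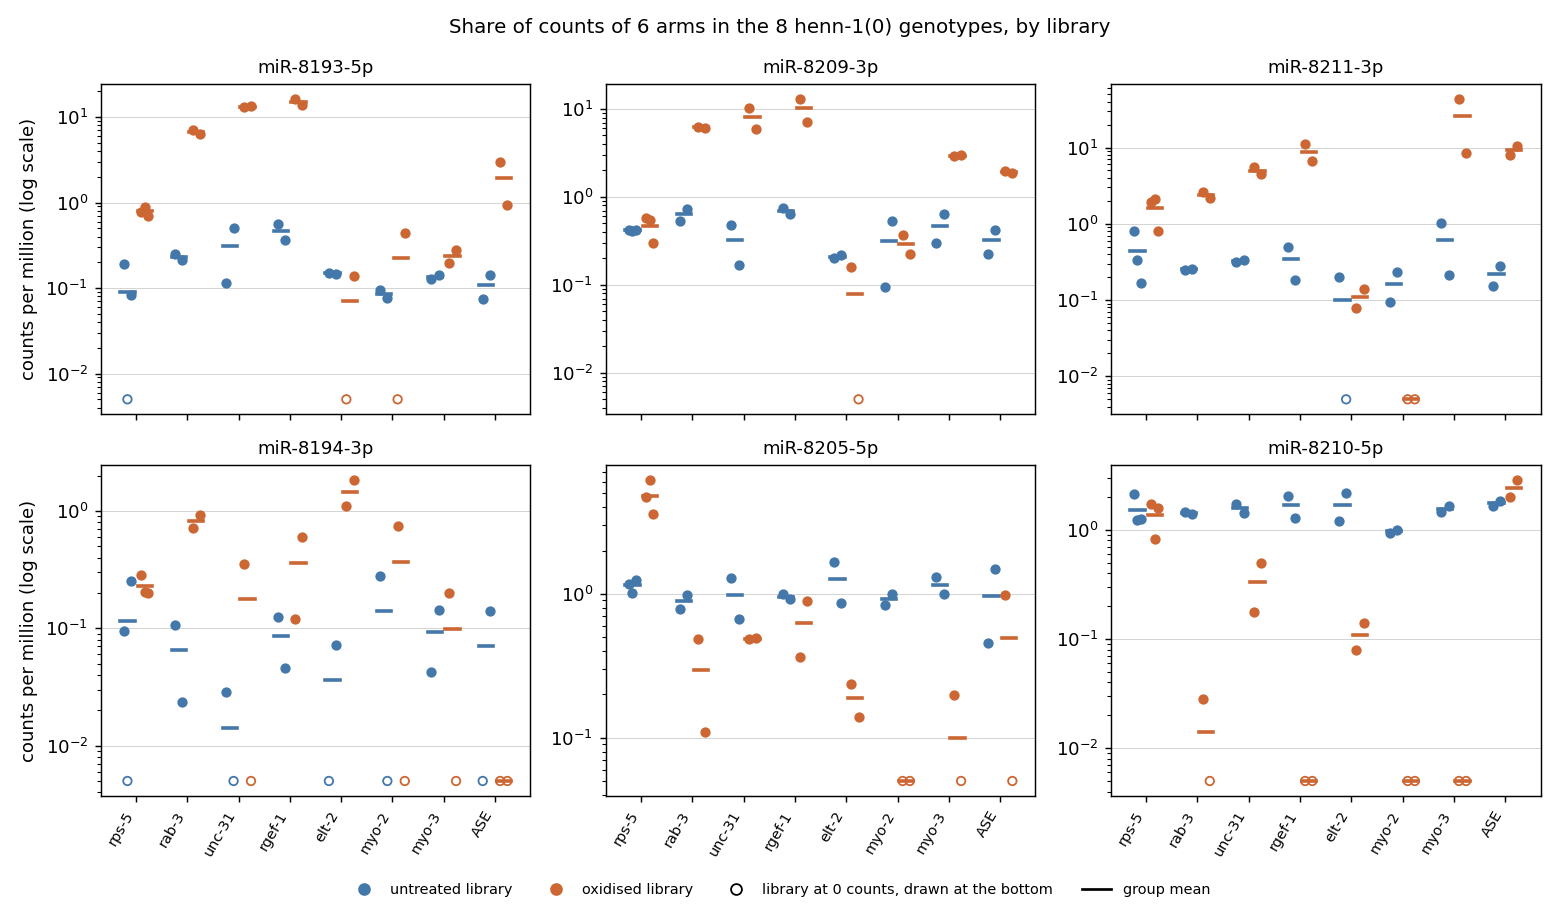
Level of miR-8193-5p, miR-8209-3p, miR-8211-3p, miR-8194-3p, miR-8205-5p and miR-8210-5p in every library of the 8 henn-1(0) genotypes, in cpm on a log axis. Points are libraries, untreated and oxidised in different colours, lines are group means, and open circles at the bottom have no count. Oxidised miR-8193-5p lies at 6.32 to 16.4 cpm with the 3 pan-neuronal drivers and at 0 to 0.444 cpm with elt-2, myo-2 and myo-3.

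The 5p arms of miR-8186 rose in all 11 genotypes with TMM, and that of miR-8186-1 in 10 with RLE. miR-8186-1-5p had 0 to 0.393 cpm untreated, and after oxidation 2.07 to 5.19 cpm with the pan-neuronal drivers, 1.05 and 1.30 with elt-2, 1.47 and 1.44 with myo-2, and 4.70 and 2.95 cpm in the wild type. It passed the test in all 11 genotypes, with the smallest rise, 1.43 ± 0.57, in rps-5, where the oxidised libraries had 0.64, 0.856 and 0.15 cpm and overlapped with the untreated 0.118 to 0.237, and that call was lost with RLE (adjusted p = 0.0638). With TMM miR-8186-2-5p gave the same calls, and these 2 were the only arms of the 47 that rose in all 8 henn-1(0) genotypes, against 3.54% of all arms. This set depends on the scaling: miR-8186-1-3p and miR-8186-2-3p each rose in 10 genotypes with TMM and total counts, and in 11 with RLE. The rises were therefore not particular to the 5p arms. The hairpins mir-8186-1 (II, 18638 to 18698, plus strand) and mir-8186-2 (18637 to 18697, minus strand) are the opposite strands of 1 site, and their 5p counts were fractional in 23 of the 46 libraries, so their separate levels are uncertain. The 2 5p arms are therefore not independent of each other. In the wild type the rise of each rests on 4.5 oxidised counts.

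A few arms fell almost everywhere. miR-8191-5p (IV, 5022928 to 5022995, minus strand, in an intron of C09B9.85, with 114 piRNA genes within 50 kb) had 1.51, 20.9 and 10.4 cpm untreated and 0, 0.0685 and 0 cpm oxidised with rps-5, a ratio of 460 (95% interval 82.2 to 18200). With rab-3 it went from 10.8 and 13.7 to 0.0284 and 0.0545 cpm, a ratio of 456 (126 to 3770), and with myo-3 in henn-1(0) from 6.86 and 6.81 cpm to no count, at least 46.4-fold lower. With myo-3 and henn-1 it went from 4.44 and 7.36 cpm to no count, at least 5.44-fold lower, a call lost with RLE (adjusted p = 0.0663) and without either oxidised library (adjusted p = 0.0683 and 0.12). It fell in 10 of the 11 genotypes with TMM, in 8 with total counts and in 6 with RLE, which lost the wild type, myo-2 and both other genotypes with henn-1. With ASE in henn-1(0) it had 18.7 and 16.2 cpm before and 4.95 and 10.4 cpm after (adjusted p = 0.13, edgeR's quasi-likelihood test with Benjamini-Hochberg adjustment). In the wild type 1 oxidised library was at 0 and the other at 10.9 cpm, above 1 of the 2 untreated ones.

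miR-8190-3p, encoded opposite the cadherin gene hmr-1, fell in 10 of the 11 genotypes with TMM and in 8 with RLE or total counts, both of which lost the wild type and ASE with henn-1. It had 2.62 cpm in both untreated rgef-1 libraries and no count in either oxidised one, at least 15-fold lower. In myo-2 it went from 1.5 and 1.92 cpm to no count, at least 4.06-fold lower, a call lost without the oxidised MLC529 library (adjusted p = 0.0811). miR-8203-3p (X, 7882764 to 7882824, minus strand, between genes) went from 1.26 and 0.944 cpm to no count with elt-2, at least 7.66-fold lower. With ASE and henn-1 it went from 0.531 and 0.43 cpm to no count, at least 1.08-fold lower, and that call was lost with RLE (adjusted p = 0.341), total counts (adjusted p = 0.233), DESeq2 (adjusted p = 0.702), no low count filter (adjusted p = 0.153), the replicate block (adjusted p = 0.0522) and without any 1 of its 4 libraries (adjusted p = 0.258 to 0.547).

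miR-8210-5p, from an intron of the mitochondrial carrier gene slc-25A29 (V, 14656547 to 14656612, minus strand), had 0.937 to 2.18 cpm in all untreated libraries. With rab-3 it went from 1.46 and 1.39 to 0.0284 and 0 cpm, and with myo-3 in henn-1(0) from 1.45 and 1.64 cpm to no count, at least 10.3-fold lower. With rps-5 it had 2.13, 1.22 and 1.25 cpm before and 1.71, 0.822 and 1.60 cpm after, which overlapped. The pan-neuronal mean lay below rps-5 by a fitted -5.30 ± 0.73 and myo-3 by a fitted -7.22 ± 1.42, and both differences include groups with no count. Its partner miR-8210-3p went from 1.05 and 0.42 cpm to no count with unc-31, at least 11.3-fold lower, a call lost without either MLC530 library (adjusted p = 0.0994 and 0.392).

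Some calls rested on few counts. miR-8207-3p, from an intron of the scaffold gene magi-1 (IV, 11722093 to 11722166, plus strand), rose with rps-5 from 1 count in 1 untreated library to 0.142, 0.137 and 0.40 cpm, a ratio of 8.06 (95% interval 1.08 to 358), and the call was lost with the replicate block (adjusted p = 0.0734), RLE (adjusted p = 0.0704), DESeq2 (adjusted p = 0.0809) and no low count filter (adjusted p = 0.0866) and without any 1 of the 4 MLC558 libraries (adjusted p = 0.0511 to 0.181). Its rise with elt-2, from 0.152 and 0.145 to 1.81 and 1.68 cpm (3.45 ± 0.75), was larger in cpm. miR-8200-5p had no count in either untreated myo-2 library and 0.737 and 0.444 cpm in the oxidised ones, at least 4.48-fold higher. Of the 47 arms, miR-8198-3p was the only one that fell with ASE in henn-1(0), from 8.75 and 9.02 to 3.96 and 4.74 cpm (-1.67 ± 0.60). The call was lost with RLE (-1.21), total counts (-1.03), DESeq2 (-1.21), no low count filter (-1.23) and the ASE libraries alone (-1.14). It was also lost without any 1 of its 4 libraries (-1.40 to -1.02). miR-8190-5p, with 31 counts over all 46 libraries, was the only arm of the 47 called in no genotype with TMM. It rose in 1 with RLE and in 1 with total counts. The share of all arms called in no genotype was not counted.

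By position, the 28 hairpins lie on chromosomes I (5), II (7), III (2), IV (7), V (4) and X (3). No protein-coding gene overlaps 12 of them, 10 lie in an intron and 2 in an exon of a gene on their strand, and 4 lie opposite a gene. The arms are 18 to 25 bases long with a median of 22, and the 371 other positioned worm arms are 17 to 26 with the same median. A length of 21, the length of piRNAs, was seen for 8 of the 55 and 46 of the 371.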

How the data were processed

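Small RNA of whole L1 larvae was counted in 46 libraries. Per the submitters' processing notes the authors used cutadapt 1.2.1, HTSeq 0.6.1p1 and the build WBcel235, while the sources used here name no aligner. The authors deposited expected counts, some fractional, per table of 916 entries, of which 443 with other names hold 0 counts. Counts were rounded for the tests.

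Library sizes were scaled by TMM, and arms were kept with filterByExpr (minimum count 10). A quasi-likelihood model (edgeR 4.0.16, limma 3.58.1, R 4.3.3) with 22 genotype by treatment groups was fitted to all 46 libraries, leaving 24 residual degrees of freedom, and p-values were adjusted by Benjamini-Hochberg over 395 arms at 0.05. The standard error is the log2 value over the root of F. Alternatives were RLE size factors, total counts, DESeq2 1.42.0, no filter, own libraries only, a strain block, and leaving out each library.

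Arms named in the text were those called in the mean ASE and myo-3 comparison of henn-1 (at most 10 by size), called arms among the 5 most abundant, the largest called rise and fall per genotype, and the largest difference each way from rps-5. Others were chosen after their values were seen, and all members and lists were chosen with earlier results of these data known. Gene positions came from the WBcel235 annotation.

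The titles in the labels give the same strain untreated and oxidised, which pairs libraries by strain in all but the wild type. Strain deviations in the 2 conditions correlated at 0.01 to 0.83 over arms (unc-31 lowest, rps-5 highest). No pair of libraries held identical values (0 pairs). Nothing in the labels says that libraries were separate cultures, so p-values measure only the spread between these samples.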

Additional observations from a re-analysis of the deposited data

Results flagged for a closer look

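Each value here is a tested difference between 2 groups in the log2 change with oxidation, past an adjusted p of 0.05 in edgeR's quasi-likelihood test with Benjamini-Hochberg adjustment. Their standard errors, counts and lost calls are given with the arms above.

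Between henn-1 present and null with the ASE driver, miR-8198-3p differed by 8.54, miR-8208-3p by 8.15, miR-8198-5p by 7.20, miR-8196a-5p by 6.54 and miR-8202-5p by 6.38. In the same comparison miR-8192-5p differed by 5.44, miR-8199-5p by 3.33, miR-8199-3p by 2.70 and miR-8204-5p by 2.34. With the myo-3 driver, miR-8198-3p differed by 11.21, miR-8198-5p by 9.99, miR-8202-5p by 9.39, miR-8192-5p by 8.96 and miR-8196a-5p by 7.14. The smaller myo-3 differences were 4.71 for miR-8204-5p, 4.52 for miR-8196b-5p, 3.20 for miR-8199-3p and 2.69 for miR-8199-5p.

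In the mean of both drivers the difference was 9.87 for miR-8198-3p, 8.59 for miR-8198-5p, 7.88 for miR-8202-5p, 7.20 for miR-8192-5p and 6.84 for miR-8196a-5p. It was 6.55 for miR-8208-3p, 3.53 for miR-8204-5p, 3.44 for miR-8196b-5p, 3.01 for miR-8199-5p and 2.95 for miR-8199-3p.

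Against rps-5, the pan-neuronal mean differed by 3.49 for miR-8209-3p and by -5.30 for miR-8210-5p. The elt-2 change differed by 4.37 for miR-8194-3p and by -6.29 for miR-8192-5p, and the myo-2 change by 4.13 for miR-8198-5p and by -8.61 for miR-8205-5p. The myo-3 change differed by 3.74 for miR-8211-3p and by -7.22 for miR-8210-5p, and the ASE change by 6.81 for miR-8198-5p and by -3.42 for miR-8205-5p.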

How the results depend on the processing

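RLE size factors and total counts kept all 21 counts of called arms, rises and falls added, within 1.5 times. The direction was less stable. With myo-2, 7 rose and 13 fell with TMM but 10 and 6 with RLE, and with myo-3 in henn-1(0) 8 and 14 became 12 and 8. Against rps-5, the 2 higher and 8 lower of myo-2 became 5 and 3 with RLE, and the 7 and 12 of myo-3 became 12 and 4. In the wild type the 6 falls became 0. DESeq2 called 13 arms with myo-2 in place of 20 (10 shared) and 30 in place of 19 for the 3 genotypes with henn-1 against the 8 without (17 shared). Without the low count filter the myo-3 henn-1 difference had 7 calls in place of 11, and myo-2 against rps-5 had 6 in place of 10. With own libraries only, rps-5 had 10 in place of 28, myo-2 8 in place of 20, elt-2 against rps-5 7 in place of 14 and ASE against rps-5 8 in place of 13. Leaving out 1 library gave 18 to 24 calls for rps-5, 7 to 16 for myo-2, 7 to 11 for the myo-3 henn-1 difference and 0 to 1 for the untreated comparison. It gave 6 to 16 for elt-2 against rps-5, 3 to 14 for myo-2 against rps-5 and 11 to 21 for myo-3 against rps-5. The myo-3 henn-1 difference of miR-8208-3p, which did not pass, ran from -0.60 to 5.85, with -0.60 without the oxidised MLC890 library. The cause was not tested.

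With the replicate block by strain the 20 counts that could be fitted stayed within 1.5 times. It ended the calls of miR-8207-3p with rps-5 (2.67) and miR-8203-3p with ASE and henn-1 (-5.95), and changed no other of 64 named results. No paired analysis was possible for the untreated comparison, because strains differ between its groups.

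Of the named results, DESeq2 kept the side of the threshold in 56 of 64, RLE in 56, total counts in 59 and no filter in 55, own libraries in 53 of 57, and leaving out 1 library in 496 of 560 fits. Depth limits arms at 3 counts or fewer.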
